A study of Mus musculus with 6 samples.

Results

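The IGKV12 and IGKV14 families are variable (V) gene families of the mouse immunoglobulin kappa light chain. All genes whose V call started with IGKV12- or IGKV14- in a kappa contig of a B cell were taken, which gave 10 genes, 6 of IGKV12 and 4 of IGKV14, of 96 IGKV genes seen in productive contigs. They were read in 823 of 5994 kappa cells of a wild-type (WT) mouse and in 30 of 3599 kappa cells of a 564Igi mouse. The WT animal was C57BL/6JRj and the other carried Ightm1(Igh564)Tik and also Igktm1(Igk564)Tik as heterozygous alleles on the B6.129S4(Cg) background, a line (stock suffix /J) with a rearranged heavy and a rearranged kappa chain gene of an autoreactive antibody in the Igh and Igk loci. Both libraries came from spleen cells depleted of Ter-119-positive erythroid cells, and the ages of the mice are not given in the sources used here. Each genotype is 1 mouse, so differences between genotypes have no replicate check and no p-value was computed. Intervals in brackets are exact 95% binomial intervals and cover counting error only.

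A kappa chain is made when 1 V gene is joined to 1 J segment, and the junction lies in the third complementarity-determining region (CDR3), a loop that contacts antigen. A B cell whose first light chain is not useful, for example because it binds self, can rearrange again with a V gene farther upstream and a J segment farther downstream, a process called receptor editing. In the mouse, IGKV14-126 together with the heavy gene IGHV11-2 is a classic receptor of B-1 cells, innate-like B cells that make natural IgM and often bind phosphatidylcholine. IGKJ3 is not functional, so IGKJ1, IGKJ2, IGKJ4 and IGKJ5 are the segments used.

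The sequences below are the most frequent WT CDR3 of each member, written because the repeated use of a few junctions runs through most of the results. They read 5′ to 3′ from the codon of the conserved cysteine to that of the conserved phenylalanine. Capitals mark the codon at the border of V and J, the third from the end.
IGKV12-38 with IGKJ1: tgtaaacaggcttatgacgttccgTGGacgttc
IGKV12-41 with IGKJ2: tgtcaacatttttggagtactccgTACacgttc
IGKV12-44 with IGKJ5: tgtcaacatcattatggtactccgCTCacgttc
IGKV12-46 with IGKJ1: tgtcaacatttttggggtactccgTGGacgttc
IGKV12-89 with IGKJ2: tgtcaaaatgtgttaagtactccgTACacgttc
IGKV12-98 with IGKJ2: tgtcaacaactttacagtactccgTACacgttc
IGKV14-100 with IGKJ2: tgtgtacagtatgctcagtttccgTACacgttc
IGKV14-111 with IGKJ2: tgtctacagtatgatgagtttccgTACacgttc
IGKV14-126 with IGKJ2: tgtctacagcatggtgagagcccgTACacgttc
IGKV14-130 with IGKJ5: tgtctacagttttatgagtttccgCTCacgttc

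The 2 B cell tables held 927382 WT and 747499 564Igi unique molecular identifiers (UMIs, which count captured RNA molecules). The filters left 6513 WT and 3827 564Igi B cells. Barcodes called a cell in both the B and the T cell table of a mouse, 345 in WT and 373 in 564Igi, were left out. Between the mice, 38 B cell barcodes were shared, 4 of them among the WT member cells. As a background, a member contig was read in 0.766% (0.496 to 1.13) of WT barcodes called only as T cells, and none of those contigs had more than 1 UMI. A productive T cell receptor contig was read in 11 of the 823 WT member cells and in none of the 30 564Igi member cells.

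All 10 genes lie on mouse chromosome 6 and all matched the RefSeq table of GRCm38, where the 4 IGKV14 genes are farther from the J segments than the 6 IGKV12 genes. IGKV14-130 (chr6:67791046-67791511) is the most distant and IGKV12-38 (chr6:69943186-69943648) the nearest, and Igkj1 starts at 70722562. The much used genes IGKV14-111 (chr6:68256404-68256869), IGKV12-46 (chr6:69764523-69764992) and IGKV12-44 (chr6:69814631-69815100) lie between them. RefSeq lists 20 genes of the 2 families, 11 of them as pseudogenes, and the 10 genes not read here are all among those. IGKV14-126 (chr6:67896177-67896642) is also listed as a pseudogene in that assembly, yet it was read in 49 WT cells with productive contigs.

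In WT, the 2 families made up 13.7% (12.9 to 14.6) of kappa cells. IGKV12 genes were read in 506 cells, or 8.44%, and IGKV14 genes in 322 cells, or 5.37%. IGKV14-111 was the most used member, with 207 cells, a share of 3.45% (3.01 to 3.95), and it held rank 6 among IGKV genes. IGKV12-46 followed with 186 cells (3.10%, 2.68 to 3.57). The intervals of those 2 genes overlapped, so their order was not resolved. IGKV12-44 was read in 139 cells (2.32%, 1.95 to 2.73) and IGKV12-41 in 92 cells (1.53%, 1.24 to 1.88), and the interval of IGKV12-44 overlapped that of IGKV12-46 slightly and that of IGKV12-41 not at all. A middle group could not be separated by counting error: IGKV14-100 had 57 cells (0.951%), IGKV14-126 had 49 (0.817%) and IGKV12-98 had 47 (0.784%). The rarest members were IGKV12-89 with 28 cells (0.467%), IGKV12-38 with 17 (0.284%) and IGKV14-130 with 12 (0.200%). The plot of usage along the locus shows that neither family is used in order of distance from the J segments, since the nearest gene, IGKV12-38, is among the least used.

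**Figure D1:**
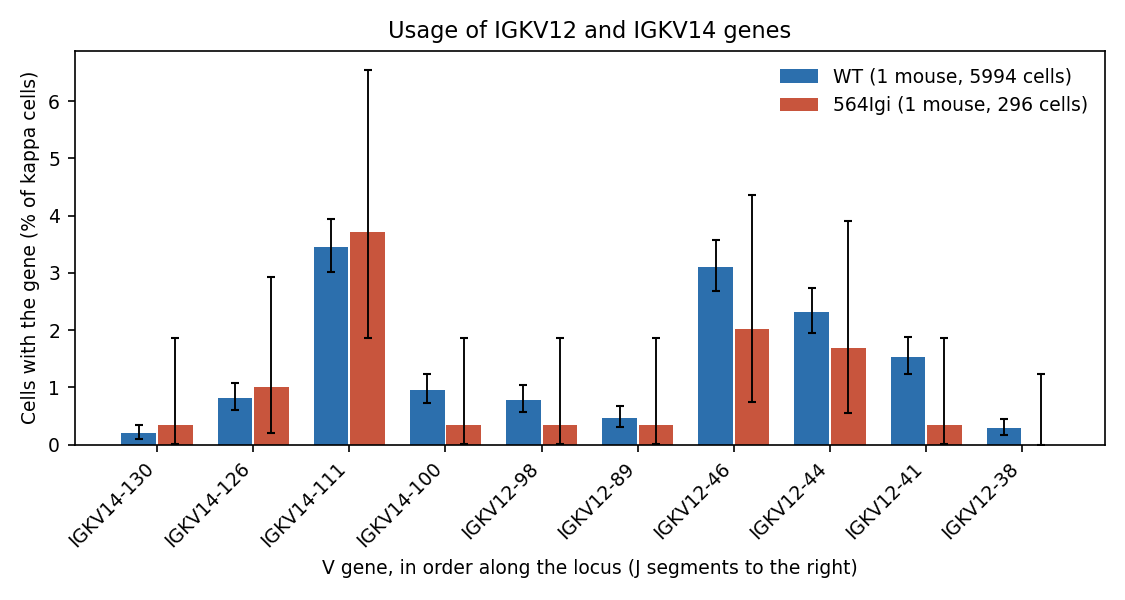
Share of kappa cells with each IGKV12 or IGKV14 gene, in percent, in order along the locus with the J segments to the right, for 1 WT (5994 cells) and 1 564Igi mouse (296 cells with a kappa chain other than the dominant one). Bars are shares and error bars exact 95% intervals. IGKV14-111 and IGKV12-46 are the tallest WT bars, and no 564Igi bar stands for more than 11 cells.

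In 564Igi, 1 chain that joins IGKV4-59 to IGKJ5 was the leading light chain of 3285 B cells, and it is called the dominant light chain, since the knocked-in sequence is not stated in the labels. The members therefore appeared in only 0.834% of all 564Igi kappa cells. Among the 296 cells that held any other kappa chain, they appeared in 30, or 10.1% (6.94 to 14.2), an interval that holds the WT share. Those 296 cells include cells with near copies of the dominant chain, and without these the share was 11.2%. IGKV14-111 was again first with 11 cells (3.72%, 1.87 to 6.55), followed by IGKV12-46 with 6, IGKV12-44 with 5 and IGKV14-126 with 3. IGKV12-41, IGKV12-89, IGKV12-98, IGKV14-100 and IGKV14-130 were read in 1 cell each. IGKV12-38 was read in none of the 296 cells, and the interval of a count of 0 reaches 1.24%.

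A gene was called different between the mice when its share changed at least 2-fold and it had at least 10 cells in a mouse. By that rule 4 of the 10 members were lower in 564Igi and 0 were higher. Of all 76 IGKV genes with enough cells, 36.8% were lower and 3.95% higher, so the members' count is near the background. The median ratio of the 564Igi to the WT share was 0.688 over the members and 0.696 over the 76 genes. The 4 called genes rest on few cells. IGKV12-41 had 1 cell where the WT share gave 4.54, IGKV14-100 had 1 where it gave 2.81, IGKV12-98 had 1 where it gave 2.32, and IGKV12-38 had 0 where it gave 0.840. The 564Igi interval held the WT value for each of these 4 genes, so none of the 4 calls exceeds counting error.

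The J segments of the 2 families differed when their genes were pooled. In WT, IGKV12 chains used IGKJ1 in 39.9% and IGKJ2 in 26.5% of 509 chains, whereas IGKV14 chains used IGKJ1 in 21.5% and IGKJ2 in 41.8% of 325. IGKV14-111 supplied most of the IGKV14 chains, with IGKJ2 in 96 of 207 chains, or 46.4%, the third highest share among 49 IGKV genes with at least 50 chains. Without it, the other 118 IGKV14 chains used IGKJ1 in 28.0% (20.1 to 36.98) and IGKJ2 in 33.9% (25.4 to 43.2). IGKV14-100 did not show the family's order, with IGKJ1 in 38.6% and IGKJ2 in 29.8% of 57 chains. IGKV12-46 used IGKJ1 in 87 of 186 chains, or 46.8%. IGKV12-44 had the highest IGKJ5 share within its family, with 54 of 139 chains, or 38.8%. IGKV12-41 and IGKV12-46, its neighbours in the locus among the members, had 26.1% and 13.98%. A single junction made up 39 of the 54 IGKV12-44 chains. With IGKJ4 added, the intervals of IGKV12-44 (36.9 to 54.0) and IGKV12-41 (28.1 to 48.8) overlapped. IGKV14-130 used IGKJ5 in 7 of 12 chains. The downstream segments IGKJ4 and IGKJ5 together, the ones left after repeated rearrangement, made up 34.8% (31.5 to 38.1) of member chains and 40.4% (39.2 to 41.7) of other kappa chains in WT. In 564Igi the shares of IGKJ4 with IGKJ5 were 43.3% (25.5 to 62.6) of 30 member chains and 53.3% (47.2 to 59.4) of 270 other chains without the dominant one. The member intervals of the 2 mice overlapped. The 270 chains include near copies of the dominant light chain, all with IGKJ5, and the share without these was not computed.

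**Figure D2:**
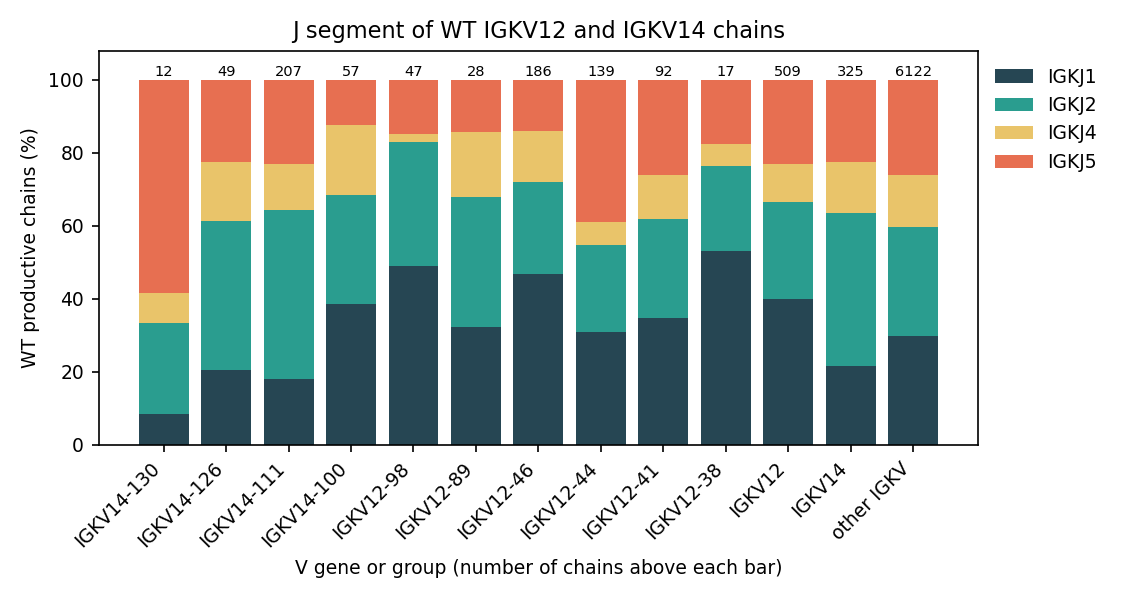
Share of WT productive chains joined to IGKJ1, IGKJ2, IGKJ4 or IGKJ5, in percent, for each member, each family and the other IGKV chains, with the number of chains above each bar. IGKJ2 is the largest segment for IGKV14-111 (46.4%), IGKJ1 for IGKV12-46 (46.8%) and IGKJ5 for IGKV12-44 (38.8%).

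Likeness in J usage was measured over the 4 segments. Among 44 IGKV genes outside the 2 families, the profile nearest to IGKV12-46 was that of IGKV1-110, at a total variation distance of 3.79%, which is the share of chains that would have to change segment to make 2 profiles equal. IGKV12-41 was nearest to IGKV8-30 (4.42%), IGKV14-100 to IGKV1-117 (5.99%), IGKV14-111 to IGKV5-39 (10.4%) and IGKV12-44 to IGKV8-30 (13.2%). The nearest of the other 4 members with at least 50 chains was IGKV12-41 for IGKV14-111, at 19.8%, and for IGKV12-44, at 12.8%. Members were not set against outside genes, since the 44 outside genes give many more chances of a near profile. These distances are descriptions over 1 mouse and include counting noise.

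The CDR3 of the members were uniform. Of 834 WT chains, 793, or 95.1% (93.4 to 96.4), had 11 codons, against 88.5% (87.7 to 89.3) of other kappa chains. None was shorter than 10 or longer than 13 codons, whereas other kappa chains ran from 7 to 21. The 834 chains held 120 distinct CDR3 with their V and J (14.4%), and the 6122 other kappa chains held 1040 (17.0%). Among the 120 distinct member chains 77.5% had 11 codons, so the uniform length rests partly on the repeated ones. That share was not computed for distinct other chains, so whether the contrast in length holds among distinct chains was not tested. The IGKV14-111 to IGKJ2 junction printed above was read in 82 of 207 cells of that gene, or 39.6% (32.9 to 46.6). That sequence was read in 3 of the 11 564Igi cells with IGKV14-111. The IGKV12-46 to IGKJ1 junction was read in 45 of 186 WT cells and 1 of 6 564Igi cells, and the IGKV12-44 to IGKJ5 junction in 39 of 139 and 2 of 5. In all, 27 of the 30 564Igi member chains had a V, J and CDR3 that was also read in WT, a share of 90% (73.5 to 97.9). The share was 79.6% (74.3 to 84.3) of other non-dominant 564Igi chains, which include near copies of the dominant light chain. It was not computed without these near copies. The 3 member chains without a WT copy were 2 IGKV14-111 chains with 12-codon CDR3 and 1 IGKV14-126 chain with IGKJ5. The 2 IGKV14-111 chains shared 1 sequence and came from cells with different IGHV6-6 heavy chains. Kappa junctions are short, so cells with 1 sequence may be relatives or may have made it independently, and the tables cannot tell these apart.

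Of the second most frequent WT junctions, those of IGKV14-126 and IGKV14-100 ended in IGKJ4, that of IGKV14-111 in IGKJ5, and those of IGKV12-41, IGKV12-89 and IGKV12-98 in IGKJ1.
IGKV14-126 with IGKJ4: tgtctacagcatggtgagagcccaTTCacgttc
IGKV14-111 with IGKJ5: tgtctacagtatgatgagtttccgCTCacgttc
IGKV12-41 with IGKJ1: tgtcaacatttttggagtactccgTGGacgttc
Among 11-codon chains, the border codon with IGKJ1 encoded tryptophan in 54.9%, arginine in 28.6% and proline in 14.1% of 255 member chains. With IGKJ2 it encoded tyrosine in 94.96% of 258, above 86.0% (84.3 to 87.7) of other kappa chains. With IGKJ4 it encoded phenylalanine in 97.9% (92.7 to 99.7) of 97, above 82.9% (80.1 to 85.4) of other chains. With IGKJ5 it encoded leucine in 85.8% and proline in 13.7% of 183, and for other chains these shares were 89.6% and 7.09%. Arginine at this border with IGKJ1, a positively charged residue, was as frequent in members (23.2 to 34.6) as in other chains, at 26.4%.

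A heavy chain was read in 628 of the 823 WT member cells. Most heavy genes were read at shares like those among other kappa cells. The 5 most frequent were IGHV3-6 (36 cells), IGHV1-26 (32), IGHV9-3 (31), IGHV1-64 (27) and IGHV1-72 (22). IGHV3-6 made up 5.73% (4.05 to 7.85) of member cells and 3.17% (2.64 to 3.78) of other kappa cells, a difference below the 2-fold rule although the intervals did not overlap. It was the first partner of IGKV14-111 (12 cells) and IGKV12-44 (10 cells). Of 30 heavy genes with at least 10 cells observed or expected at the share of other kappa cells, 3.33% were called higher and 6.67% lower. The 2 lower genes were IGHV1-69 (5 cells where 10.4 were expected) and IGHV14-4 (4 where 10.03 were expected), and the member interval of each held the share among other kappa cells. IGHV11-2 was the 1 higher gene, with 14 of 628 member cells against 3 of 3818 other kappa cells. The plot of heavy gene shares shows it alone at the left edge.

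**Figure D3:**
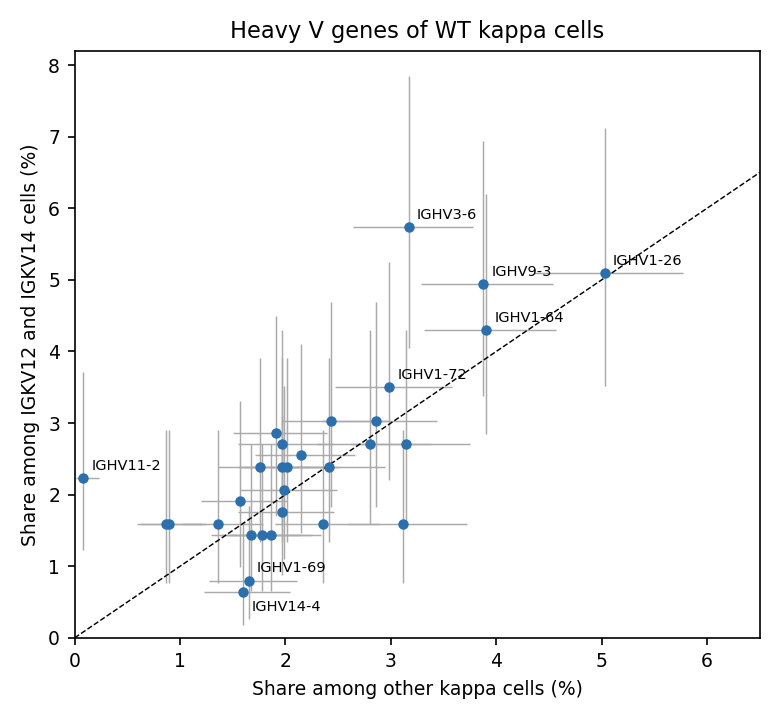
Share of each heavy V gene among WT IGKV12 and IGKV14 cells (vertical, percent) against its share among other WT kappa cells (horizontal, percent), for 30 genes, with exact 95% intervals and a dashed line of equal shares. IGHV11-2 (2.23% against 0.0786%) and IGHV3-6 (5.73% against 3.17%) lie farthest above the line.

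Most IGHV11-2 cells were IGKV14-126 cells. Of the 17 WT IGHV11-2 cells with a light chain, 13 (76.5%, 50.1 to 93.2) held IGKV14-126, which is 32.5% (18.6 to 49.1) of the 40 IGKV14-126 cells with a heavy chain. This pair is known from B-1 cells, and without the gene expression library the cell type itself was not checked. All 13 heavy chains used IGHJ1 and the constant gene IGHM. The light chains used IGKJ2 in 7, IGKJ4 in 4 and IGKJ1 in 2 cells, with no IGKJ5, while the 27 IGKV14-126 cells with another heavy chain used IGKJ5 in 9. All 13 light CDR3 were 11 codons long and took just 3 sequences, 1 for each J segment. The 13 cells made up 8 different receptors by V, J and CDR3 of both chains. The largest receptor was read in 4 cells and the next in 3 cells, and the heavy CDR3 of these are shown with the heavy CDR3 that was read with both IGKJ1 and IGKJ2 light chains.
IGHV11-2 heavy CDR3 of 4 cells: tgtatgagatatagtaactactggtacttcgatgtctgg
IGHV11-2 heavy CDR3 of 3 cells: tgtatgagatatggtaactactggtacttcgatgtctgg
IGHV11-2 heavy CDR3 with IGKJ1 and IGKJ2: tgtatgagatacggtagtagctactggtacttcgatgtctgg
UMIs were higher in the paired cells. The IGKV14-126 chain had a lowest value of 13, a median of 112 and a highest of 257 UMIs with IGHV11-2, against 27, 64 and 8989 with other heavy chains, so the ranges overlapped. The heavy chain had medians of 49 and 17 UMIs. The 27 other IGKV14-126 cells held 19 heavy V genes, 16 IGHM and 8 IGHD constant genes. In 564Igi, 2 IGHV11-2 cells with a light chain and 3 IGKV14-126 cells with a heavy chain were read and none held the pair, too few to compare.

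The other 4 WT IGHV11-2 cells did not all use IGHJ1. A cell with IGKV14-111 and IGKJ2 had IGHJ2, and a cell with IGKV8-30 had IGHJ2. The cells with IGKV6-17 and IGKV9-120 had IGHJ1. The IGKV6-17 and IGKV8-30 chains had only 7 and 5 UMIs.

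IGKV14-130, the member farthest from the J segments, had an unusual set of partners, noticed after its values were seen. Of its 11 WT cells with a heavy chain, 5 held an IGHV5 gene (3 IGHV5-17 and 2 IGHV5-4), or 45.5% (16.7 to 76.6), against 7.10% (6.30 to 7.96) of other kappa cells. Its chains were also the weakest, with 5, 16 and 27 UMIs as lowest, median and highest. Of its 12 cells, 7 held a second light chain, and IGKV14-130 was the leading chain in 0 of these 7. Whether the heavy partner belongs to the other light chain in those 7 cells was not tested.

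Over all members, 27.6% (24.6 to 30.7) of the 834 WT chains came from a cell with a second productive light chain, and the share was 28.1% (27.0 to 29.3) for other kappa chains. In such cells the member chain had the most UMIs in 57.0% (50.3 to 63.4), against 43.6% (41.2 to 45.99) for other kappa chains. The members' own UMIs were higher in WT, with a median of 47 (45 to 48) against 36 (35 to 37). IGKV12-89 had the highest member median, 70 (56 to 77), and IGKV14-126 the next, 61 (50 to 72). IGKV14-111, the most used gene, had one of the lowest, 38 (35 to 40), and IGKV14-130 the lowest, 16 (12 to 22). Among 49 IGKV genes with at least 50 chains, medians ran from 13.5 to 62.5, and IGKV12-41 held rank 9 and IGKV14-111 rank 28 from the top.

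**Figure D4:**
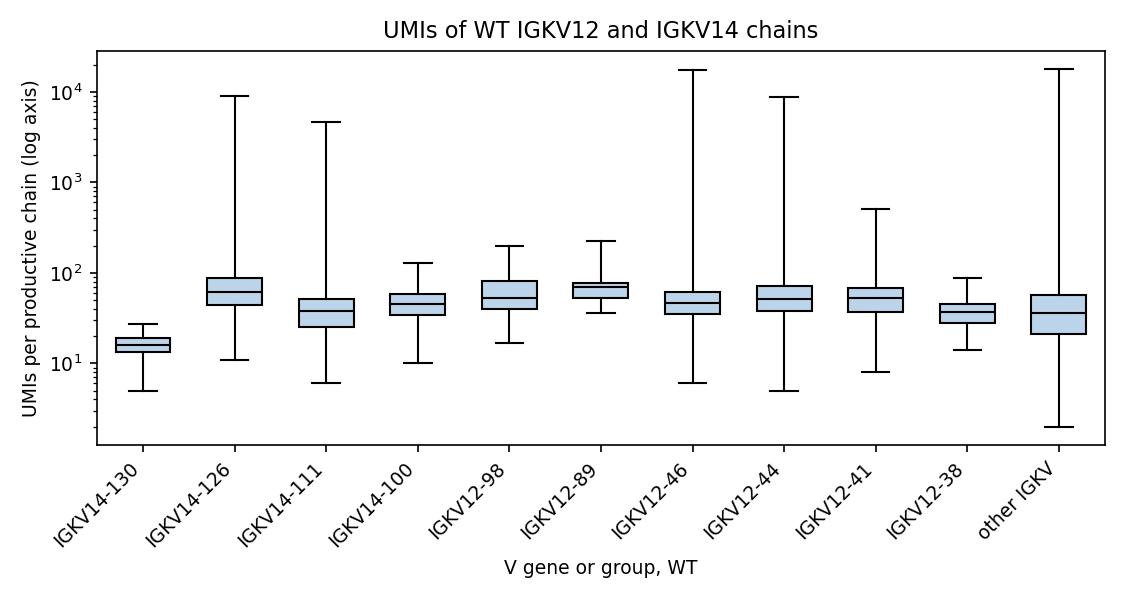
UMIs per productive WT chain on a log axis, for each member in locus order and for other IGKV chains. Boxes span the quartiles with the median as a line, and whiskers reach the lowest and highest chain. The IGKV14-130 box lies below all others, and IGKV12-46, IGKV12-44, IGKV14-126 and IGKV14-111 each reach beyond 1000 UMIs.

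The heavy constant genes of WT member cells were mostly unswitched. IGHM was read in 443 of 582 cells with a constant gene (76.1%) and IGHD in 135 (23.2%), with 77.5% and 21.9% in other kappa cells. A switched constant gene was read in 4 member cells, or 0.687% (0.187 to 1.75), and in 21 of 3585 other cells, or 0.586%. All 4 were IGHA cells with IGKV12-46, IGKJ4 and IGHV9-3 that shared both CDR3. One of them had 17560 light and 13370 heavy UMIs, and the other 3 had 12 to 16 light and 6 to 19 heavy UMIs. The part of free RNA from the first cell in the other 3 was not tested. Outside these 4 cells, the light chain of that receptor was read in 21 WT B cells, at 18 to 114 UMIs with a median of 45.
IGKV12-46 with IGKJ4: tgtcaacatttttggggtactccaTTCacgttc
IGHV9-3 with IGHJ2: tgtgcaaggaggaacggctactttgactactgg
WT chains of 1000 UMIs or more were rare. Besides that cell, 1 chain each of IGKV14-126 (8989 UMIs, with IGHV3-6), IGKV12-44 (8806, with IGHV1-76) and IGKV14-111 (4636, with IGHV6-3) reached this level, each with IGHM.

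In 564Igi, member chains often sat beside the dominant light chain, as did other non-dominant kappa chains. Of 30 member cells, 18 also held it, or 60% (40.6 to 77.3), against 135 of 270 other non-dominant chains (50%, 43.9 to 56.1). The member chain had more UMIs in 16 of the 18 cells, with medians of 38.5 and 16. In cells with a second light chain of any kind, members led in 84.2% (60.4 to 96.6) and other non-dominant chains in 85.5% (78.7 to 90.8). In cells without a member chain the dominant chain had a median of 17 UMIs. Among the 25 member cells with a heavy chain, 1 held the dominant heavy chain, which joins IGHV1-53 to IGHJ4 and was the leading heavy chain of 1818 cells. Among cells with another non-dominant kappa chain it was 32 of 233. These 233 include cells with a near copy of the dominant light chain, and the count without them was not computed. The heavy CDR3 of 1 further member cell, with IGKV14-111, IGHV1-64 and IGHG2C, had the same length as the dominant one and 1 mismatch to it. IGHV6-6 was the most frequent partner with 5 cells, 3 of them with IGKV14-111 and 2 with IGKV12-46, and its share was not compared with that of other cells. IGHM was read in 22 of 25 cells (88%), IGHD in 2 (8%) and a switched gene, IGHG2C, in 1 (4%). In 226 other non-dominant kappa cells with a constant gene, these shares were 82.3%, 13.3% and 4.42%, each within the member interval.

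In 4 of the 25 cells, or 16.0% (4.54 to 36.1), a heavy chain with another V gene ended in the last 30 bases of the dominant heavy CDR3, a feature noticed in the data. These 4 CDR3 were 54 to 69 bases long, against 42 for the dominant one. Capitals mark the shared 30 bases, and the dominant CDR3 comes first.
Dominant IGHV1-53: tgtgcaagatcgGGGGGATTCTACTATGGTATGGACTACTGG
IGHV6-6 with IGKV12-46: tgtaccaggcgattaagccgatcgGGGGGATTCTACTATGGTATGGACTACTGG
IGHV6-6 with IGKV14-111: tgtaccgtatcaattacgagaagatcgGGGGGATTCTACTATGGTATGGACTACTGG
IGHV2-6-8 with IGKV12-41: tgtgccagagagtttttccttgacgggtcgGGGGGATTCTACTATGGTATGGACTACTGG
IGHV2-6-8 with IGKV12-44: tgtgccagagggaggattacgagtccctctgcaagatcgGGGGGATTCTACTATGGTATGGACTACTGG
All 4 cells also held the dominant light chain. The share was 23.2% (17.9 to 29.1) of 233 cells with another non-dominant kappa chain and 20.04% (18.6 to 21.5) of 3019 cells with the dominant light chain as their one kappa chain, so the member cells were not set apart. In WT it was 0 of 628 member cells, with an interval that reaches 0.586%.

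One 564Igi member cell stood out by depth. It held an IGKV14-111 chain with IGKJ4 at 5866 UMIs, the dominant light chain at 2962 UMIs and an IGHV1-39 heavy chain with IGHM at 2152 UMIs. Its light CDR3 has 10 codons and was read in 1 other 564Igi B cell at 7 UMIs, the IGHG2C cell named above, and in 1 WT cell.
IGKV14-111 with IGKJ4: tgtctacagtatgatgagttaTTCacgttc

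Contigs that are not productive can show what was rearranged without selection of the protein. Those marked as not productive were few. Of 33 such WT kappa contigs, 3 were members, or 9.09% (1.92 to 24.3), with 2 of IGKV12-46 and 1 of IGKV12-44, against 11.99% (11.2 to 12.8) of 6956 productive chains. In 564Igi, 3 of 5 such contigs were members (60%, 14.7 to 94.7), all of them IGKV14-111. They had 35, 6 and 39 UMIs and were joined to IGKJ4 in 2 cells with IGHV1-64 heavy chains and to IGKJ5 in 1 cell with an IGHG2B IGHV1-53 heavy chain. None of these 3 cells held the IGKJ1 contig described below. A larger class, contigs with a V and a J but no CDR3 call, was added after the data had been seen. Whether contigs of this class are out of frame was not tested. Members made up 42 of 611 of these in WT, or 6.87% (5.00 to 9.18), below their productive share. By the 2-fold rule 5 of 10 members were lower in that class and 0 higher, where 35.1% of 77 IGKV genes were lower and 15.6% higher. The 5 were IGKV12-46 (7 contigs), IGKV14-111 (9), IGKV14-126 (1), IGKV12-38 (0) and IGKV14-130 (0). For the last 3 genes the interval held the productive share, and for IGKV12-46 and IGKV14-111 the intervals of the 2 classes overlapped.

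In 564Igi the same class held a single prominent pair, and it was a member. IGKV14-111 joined to IGKJ1 without a CDR3 call was read in 11 B cells, or 20% (10.4 to 32.97) of the 55 in this class, and the next pair in 3. With contigs of any confidence it was 20 of 67 cells, or 29.9% (19.3 to 42.3), and the next pair in 4. In WT the pair was read in 3 of 6513 B cells, or 0.0461% (0.00950 to 0.135), against 0.523% (0.320 to 0.806) of 3827 564Igi B cells at any confidence. Of the 4573 564Igi barcodes with a T cell call alone, 0 held it, where 3 barcodes would make 0.0656%. All 20 cells also held an IGKV4-59 to IGKJ5 chain, 11 of them the exact dominant one and 9 a near copy with the same CDR3 length. IGKV4-59 was read in 96.9% of the 3599 564Igi kappa cells, so holding it does not set the 20 cells apart. Over all 564Igi B cells, the exact dominant chain was read in 3455 and a near copy in 30. No contig sequence was in the tables used, so whether the 20 cells share 1 rearrangement was not tested.

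The 20 cells fell into 2 sets by depth. In 7 cells with 1594 to 8945 UMIs of IGKV4-59, the IGKV14-111 contig had 124 to 297 UMIs, a length of 662 to 740 bases and no high-confidence flag. In the other 13 cells, with 7 to 161 UMIs of IGKV4-59, it had 6 to 69 UMIs and a length of 499 to 582 bases, exceeded the IGKV4-59 chain in 5 cells and carried the flag in 11. The plot of both contigs shows the gap between these sets.

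**Figure D5:**
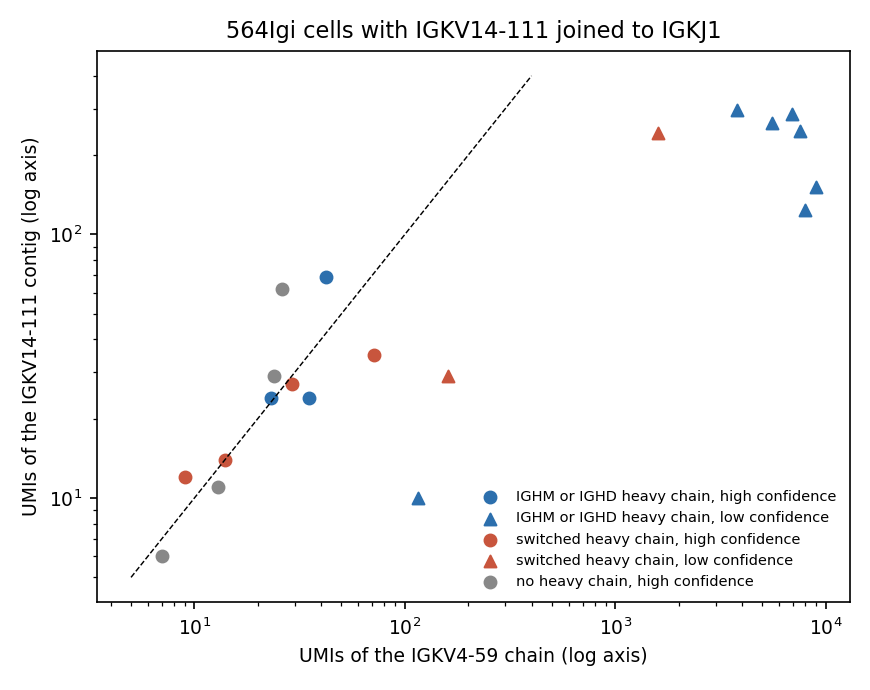
UMIs of the IGKV14-111 to IGKJ1 contig without a CDR3 call (vertical, log axis) against UMIs of the IGKV4-59 chain of the same cell (horizontal, log axis) in 20 564Igi B cells, coloured by heavy chain class, with circles for high-confidence contigs, triangles for the others and a dashed line of equal UMIs. The 7 cells to the right have 124 to 297 IGKV14-111 UMIs, and the other 13 have 6 to 69.

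Most heavy chains of these cells were the dominant one or a near copy of it. Of 16 with a heavy chain, 15 used IGHV1-53, with the exact dominant CDR3 in 8 and a near copy, with 1 to 5 mismatches at the same length, in 7. Switched constant genes were read in 6 of 16. Read from the other side, the contig was present in 7 of 17 cells with a near copy of the dominant heavy chain (41.2%, 18.4 to 67.1), in 6 of the 9 of these that were switched (66.7%, 29.9 to 92.5), and in 8 of 1818 cells with the exact dominant heavy chain (0.440%, 0.190 to 0.865). It was present in 9 of 30 cells with a near copy of the dominant light chain (30%, 14.7 to 49.4) and in 7 of 45 cells with at least 1000 receptor UMIs (15.6%, 6.49 to 29.5). These sets share cells. Any other V and J pair without a CDR3 call was read in 0 of the 17 near-copy cells, 17 of the 1818 with the exact heavy chain, 1 of the 30 and 1 of the 45. The 20 cells were chosen for their contig, and these shares are descriptions of 1 mouse.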

How the data were processed

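The series has gene expression, B cell V(D)J and T cell V(D)J libraries of 1 WT and 1 564Igi mouse, and the V(D)J tables were used. Per the file headers, the deposited tables give a read count and a UMI count per contig, and these are raw whole numbers. Cell Ranger 3.0.2 and the mm10 build appear in the submitters' processing notes, with no role stated. The rules behind cell calls and confidence flags are not stated there.

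B cells were barcodes with a B cell call and no T cell call in that mouse. Contigs had to be high-confidence with at least 2 UMIs. Chains were counted once per cell, V, J and CDR3 nucleotides, and the leading chain had most UMIs. No doublet caller was run. Positions come from RefSeq (GRCm38.p6). Members, lists and rules were chosen with earlier results of these data known. Named genes were all members, the outside gene nearest in J usage, the 5 most frequent and all called heavy partners, and the 2 most frequent CDR3 per member, while other named genes were chosen after their values were seen. A call needed a 2-fold difference in share and 10 cells or contigs. The rule was run on simulated counts, where only the coverage of the intervals had to meet a limit. How often it calls genes of equal share is not reported here. Intervals are exact binomial (Clopper-Pearson), and for medians order-statistic, at 95%. Where a bound stands beside a count of 0, it is the upper limit of that interval or, for T cell barcodes, the share that 3 counts would make. Each genotype is 1 mouse, so there was no test between groups. Alternatives changed the UMI minimum, confidence flag, barcode filter and counting unit. The tools were Python 3.11.15 with NumPy 2.4.6, SciPy 1.17.1, pandas 2.3.3 and, for plots, matplotlib 3.10.9.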

Additional observations from a re-analysis of the deposited data

Results flagged for a closer look

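Barcodes not called a cell in the B cell tables, which no comparison of usage included, also held member contigs. In WT they held 303 IGKV12-46 contigs, or 3.94% (3.52 to 4.40) of 7682 IGKV contigs there, while the gene made up 2.67% of B cell chains. The WT cell with 17560 UMIs of an IGKV12-46 chain is in the same library, and 19 of the barcodes held its light CDR3. IGKV12-98, with no chain of 1000 UMIs, was also higher there (1.05% against 0.676%), while IGKV12-44 and IGKV14-111, with chains of 8806 and 4636 UMIs, were lower (1.37% against 1.998% and 1.497% against 2.98%). In 564Igi the uncalled barcodes held 107 IGKV14-111 contigs, or 1.45% (1.19 to 1.75) of 7393, while the gene made up 0.293% of B cell chains. Of the uncalled 564Igi barcodes, 65 held IGKV14-111 with IGKJ4, the pair of the cell with 5866 UMIs, and 18 held its CDR3. Both sets of contigs had a median of 1 UMI. The part of those 2 cells in them was not tested. The measures differ, since the uncalled shares count contigs of 1 UMI and contigs without a J. The B cell shares count productive, high-confidence chains of at least 2 UMIs. With all IGKV contigs counted, members were 10.9% in WT barcodes called in neither table and 10.9% in WT B cells. In 564Igi these shares were 1.95% and 1.28%. Such shares were not computed per gene.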

How the results depend on the processing

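Of 64 alternative values of the main results, 54 stayed within the interval of the main value (or within 1.5 times a count). The WT share of the 2 families, 13.7%, was 12.5% with the leading kappa chain only, 12.3% in cells of 1 heavy and 1 light chain and 10.3% with each distinct chain counted once. The number of members called between the mice, 4, became 2 with barcodes called in both tables kept and 1 with distinct chains. Counting distinct chains also moved IGKJ4 with IGKJ5 from 34.8% to 40.8% and 11-codon CDR3 from 95.1% to 77.5%. The median UMIs went from 47 to 71, but each distinct chain kept its copy with most UMIs, so these medians are unlike measures. The switched share went from 0.687% to 0.175%, the latter counted over 572 distinct heavy chains. The median was 52 UMIs in cells of 1 heavy and 1 light chain. IGKV14-111 with IGKJ1 rose from 11 to 20 cells without the confidence filter. The number of 564Igi member cells, 30, limits every comparison with that mouse. No paired analysis was possible because each genotype is 1 mouse and no result comes from a test.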
